A study of Bos indicus with 5 samples.

Results

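The genes described here are the homeobox, PAX and TBX patterning factors of the bovine oviduct ampulla, the wide section where fertilization takes place. They were chosen by symbol alone: every row of the deposited table named as a HOX gene of the A to D clusters, a PAX, sine oculis homeobox, EMX, OTX, LHX, LMX1, MSX, DLX, IRX, MEIS, PBX, TBX, PITX, EN or NKX gene, WT1 or SOX17. This gave 115 of the 24616 genes in the table. Transcripts were measured by polyA RNA sequencing of full-thickness ampulla from adult Nelore (Bos indicus) cows that had calved more than once. All cows received a progesterone device, estradiol benzoate, a prostaglandin F2 alpha analog at device removal and a GnRH agonist to induce ovulation, and the tissue was taken on day 4 from the oviduct on the side of ovulation. Group LF/LCL (2 libraries) stands for a large follicle and corpus luteum, with removal 42 h before GnRH, and these cows also received the prostaglandin analog when the device was inserted. Group SF/SCL (3 libraries) stands for a small follicle and corpus luteum, with removal 30 h before GnRH. Each library came from a different cow, and the study chose the cows as the most extreme of each group on ovarian and endocrine measurements, so that the groups stand for the ends of the responses and not for their middle.

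Homeobox genes encode transcription factors that bind DNA through a homeodomain and give cells of an embryo their position and identity. HOX proteins act along the body axis in the order of their genes within a cluster and bind DNA together with the MEIS and PBX cofactors. The oviduct, uterus and upper vagina form from the Mullerian duct, whose growth needs PAX2, PAX8, LHX1, EMX2 and WNT signals, and several of these factors stay on in the adult epithelium. PAX proteins carry a paired domain, and TBX proteins a T-box domain. The comparison asked whether the transcripts of these factors in the ampulla differed between cows with a large and cows with a small follicle and corpus luteum.

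Reads assigned to genes numbered between 13418278 and 19592174 per library, and 17431 to 17653 genes had a read. Values are normalized reads, counts that the authors scaled by one size factor for each library, without scaling for gene length, so that levels are compared between libraries and never between genes. In these samples of whole tissue, fewer cells of a type and less RNA per cell cannot be told apart. The ampulla markers OVGP1 (secretory cells) and FOXJ1 (ciliated cells) were abundant in every library. Markers of other cell types were not even across the libraries. All 6 measured smooth muscle markers were higher in LF/LCL at an unadjusted limma p under 0.05, and their summed level was 63842 and 30728 normalized reads in LF/LCL against 16960, 22427 and 8797 in SF/SCL replicates 1, 2 and 3. Of 10 ciliated cell markers 6 were higher in SF/SCL at the same threshold, with sums from 38775 to 49566 in LF/LCL and, in SF/SCL, from 57457 to 58498. Of 7 genes listed for the secretory epithelium, not all of them particular to secretory cells, EPCAM and CLDN4 were higher in LF/LCL at that threshold. The groups of 3 of the 7 did not overlap, each with LF/LCL above. MUC1, ELF3 and OVGP1 had a lower mean in LF/LCL, with groups that overlapped. The sums over the 7 markers, most of which is OVGP1, overlapped, from 145940 to 173412 in LF/LCL and, in SF/SCL, from 146032 to 174999.

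Most of the patterning factors had no or few reads in the ampulla. Of the 115 genes, 20 had 0 reads in every library, which allows up to 0.0383 RPM (reads scaled to library size) over the 78245436 reads of the 5 libraries (a limit of 3 reads, for counting error only). A further 20 had from 1 to 3 reads in all, and 59 had a read in every library. The test was run on the 55 genes whose mean value was over 5, since 40 genes with reads stayed below that minimum with at most 21 reads in total. Just inside the minimum were HOXA13 (mean 5.68) and LMX1B (6.83), and just outside it were IRX5 (4.14) and HOXA10 (3.49). By their mean over the 5 libraries 9 factors reached 1000 normalized reads, 36 lay from 15 to under 1000, and 50 had reads but a mean under 15.

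No patterning factor had an adjusted p under 0.05 with limma, and neither had any of the 15815 genes tested (0%). The smallest adjusted p among the factors was 0.207, for HOXB2. At an unadjusted limma p under 0.05 there were 14 of the 55 factors (25.5%) against 11.5% of all genes tested. Of these, 10 were higher in LF/LCL (18.2% against 5.64% of all genes) and 4 were higher in SF/SCL (7.27% against 5.86%). The groups did not overlap in 23 factors (41.8%) against 30.1% of all genes. LF/LCL lay above in 15 of them (27.3% against 15%) and SF/SCL above in 8 (14.5% against 15.1%). These shares hold for genes with a mean over 5 and depend on that minimum. Among the 95 factors with any read, the groups did not overlap in 24 (25.3% against 27.1% of all genes with a read). In that wider set 14 (14.7% against 10.5%) had an unadjusted limma p under 0.05. With DESeq2 on the recovered reads, 5 factors had an adjusted p under 0.05 (9.09% against 2.92% of all genes), namely HOXB2, PAX8 and IRX6 higher in LF/LCL, and MEIS2 and SIX3 higher in SF/SCL. It gave no adjusted p for HOXA13 and LMX1B. The edgeR quasi-likelihood test gave 14 factors at an unadjusted p under 0.05 (against 11.6% of all genes) and 0 after adjustment. Without LF/LCL replicate 1 the limma count was 8 (14.5% against 7.8% of all genes), with LF/LCL the higher group in 5 and SF/SCL in 3. The split of the factors without overlap also rested on the LF/LCL library used. It was 18 with LF/LCL above and 19 with SF/SCL above when LF/LCL replicate 1 was left out, and 26 and 11 when replicate 2 was, with 56.9% and 57.1% of all genes then not overlapping.

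The 14 factors with an unadjusted p under 0.05 were HOXB2, HOXB3, HOXC4, HOXC8, MEIS1, MEIS3, PAX2, PAX8, IRX6 and TBX2, higher in LF/LCL, and MEIS2, PBX3, PAX6 and SIX3, higher in SF/SCL. In every one of them the values of the 2 groups did not overlap. Because of this, leaving out 1 library could not change the direction of any of the 14, and their kept direction is no further evidence. HOXB2, MEIS2, MEIS3, PAX2, PAX6, PAX8, IRX6 and TBX2 kept an unadjusted limma p under 0.05 whichever SF/SCL library was left out. A fit without an LF/LCL library leaves 1 in that group. PAX6 passed the minimum mean of 5 only through SF/SCL. The marker sum of smooth muscle lay higher in both LF/LCL libraries, as did these 10 factors, and that of ciliated cells higher in all 3 SF/SCL libraries, as did these 4, and the part of either in the differences was not tested. The median log2 fold change (LF/LCL over SF/SCL, on the log2 scale of value plus 1) was 0.03 over the 55 factors and 0.005 over all genes tested. Their values were more spread than those of other genes, with a median size of the log2 fold change of 0.39 against 0.21, and a median coefficient of variation over the 5 libraries of 30.7% against 17.5%. The factors were not matched to other genes on read count for this comparison.

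**Figure D1:**
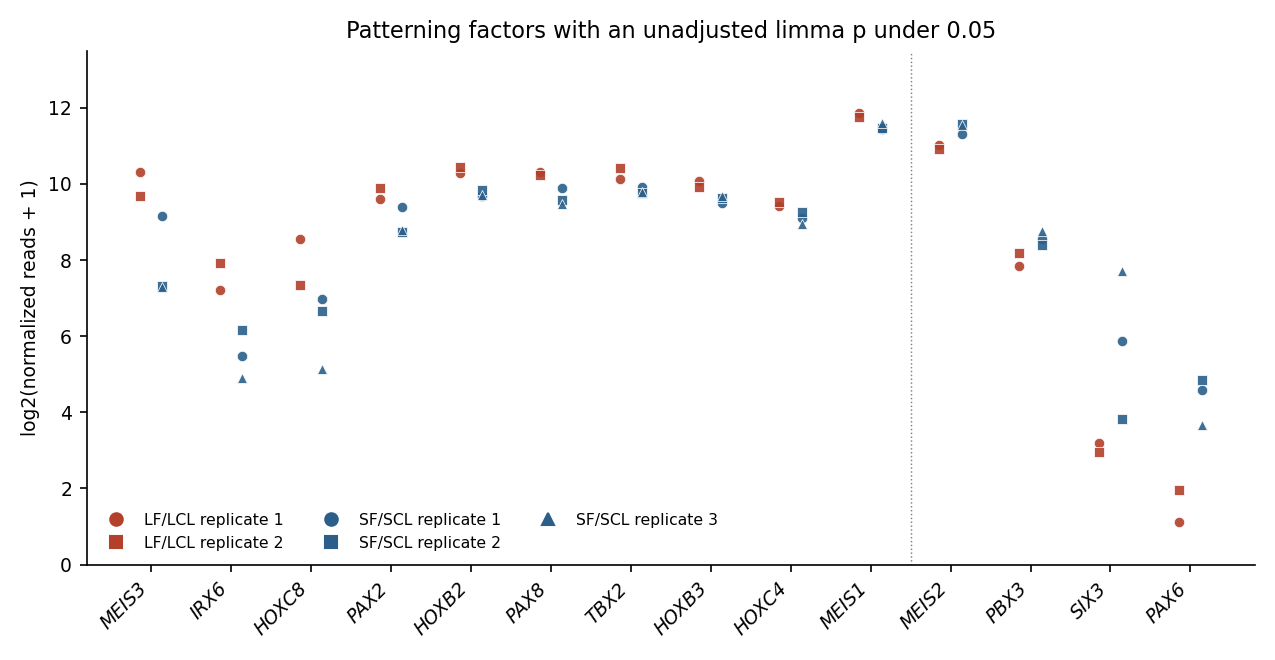
Values of the 14 patterning factors with an unadjusted limma p under 0.05, as log2(normalized reads + 1) for each library (red, LF/LCL; blue, SF/SCL; 1 marker per library). To the left of the dotted line are the 10 factors higher in LF/LCL and to the right the 4 higher in SF/SCL. The red and blue points do not overlap in any of them, and the widest gap is that of PAX6, from 2.90 in LF/LCL to 11.8 normalized reads in SF/SCL. PAX6 passed the minimum mean for testing only through SF/SCL. The SF/SCL libraries of SIX3 run from 13.2 to 209 normalized reads.

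The HOX genes, which set position along the body axis, were detected mainly in the middle part of each cluster and hardly at its rear end. The front end was uneven. Of the 5 genes of paralog groups 1 and 2, 4 were tested, but 3 of the 5 had a mean under 15, and HOXB1 had 1 read in all. All 15 genes of paralog groups 3 to 8 were tested. Of the 15 genes of groups 9 to 13 only HOXA9, HOXA13 and HOXD9 were tested, while 7 had 0 reads in every library and 5 had reads below the minimum. HOXA10 and HOXA11, which pattern the uterus, had 18 and 4 reads over all 5 libraries. HOXA9, the gene of the series that marks the oviduct, had 9.38 and 43.6 normalized reads in LF/LCL against 1.04, 19.4 and 7.51 in SF/SCL. Its groups overlapped and its log2 fold change of 1.60 ± 1.15 (SE) had a limma adjusted p of 0.653. Of all 22 HOX genes tested 16 (72.7%) had a positive log2 fold change, against 50.8% of all genes tested, and HOXA4 and HOXC5 among them turned negative when scaled by library size alone. An unadjusted p under 0.05 was found for 4 of the 22 (18.2% against 11.5% of all genes), each higher in LF/LCL, and the groups did not overlap in 9 (40.9% against 30.1%).

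**Figure D2:**
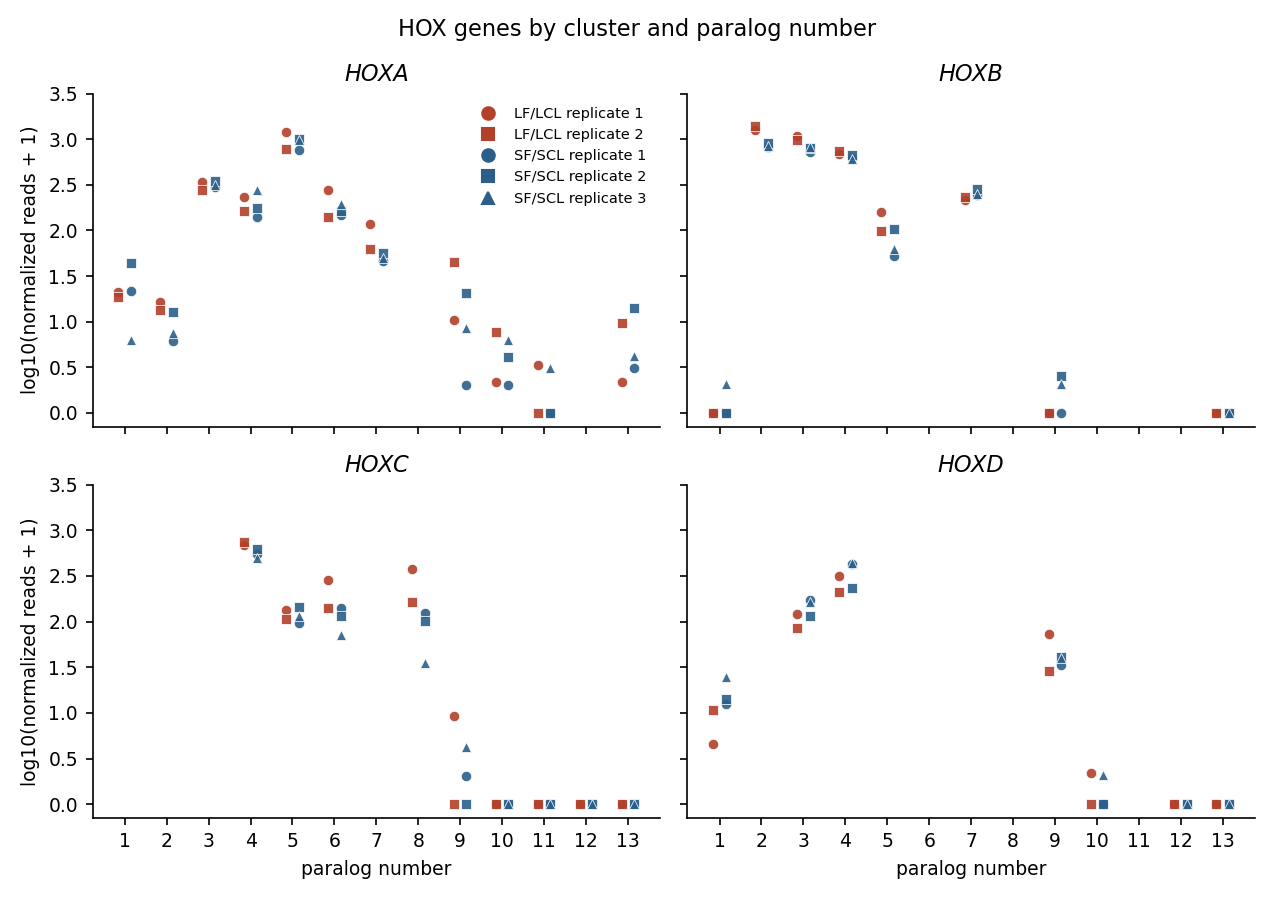
HOX genes of the 4 clusters by paralog number, as log10(normalized reads + 1) for each library (red, LF/LCL; blue, SF/SCL), with genes at 0 reads drawn at 0. Heights are not scaled for gene length and are to be read within a gene. Paralog groups 3 to 8 carry reads in all 5 libraries, and from group 10 on most points lie at 0.

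In the HOXB cluster HOXB2 and HOXB3, at its front end, had an unadjusted p under 0.05. HOXB2, a gene of hindbrain and anterior trunk identity in the embryo, had 1244 and 1404 normalized reads in LF/LCL against 827, 913 and 839 in SF/SCL. Both LF/LCL libraries lay above every SF/SCL library. The means were 1324 ± 113 (SD, n = 2) and 859.7 ± 46.8 (SD, n = 3), and the log2 fold change was 0.62 ± 0.11 (SE; limma adjusted p = 0.207, DESeq2 adjusted p = 0.00258). HOXB3 had 1081 and 969 against 721, 794 and 827 normalized reads. It too had no overlap, with a log2 fold change of 0.39 ± 0.12 (limma adjusted p = 0.333, DESeq2 adjusted p = 0.175). HOXB4, its neighbour, differed less, with 708 ± 37.7 against 634 ± 36.9 normalized reads and a log2 fold change of 0.16 ± 0.12 (limma adjusted p = 0.658). The value of HOXB2 per value of HOXB4 was 1.83 and 1.91 in LF/LCL against 1.35, 1.35 and 1.37 in SF/SCL, so that these 2 genes of one cluster differed unequally between the groups. HOXB7 went the other way, with 222 ± 14.2 against 258 ± 22.9 (log2 fold change -0.21 ± 0.17, limma adjusted p = 0.683). HOXB5 overlapped between the groups, and HOXB1, HOXB9 and HOXB13 had at most 3 reads in all.

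All 4 HOXC genes tested had a positive log2 fold change, except that HOXC5 turned to -0.004 when scaled by library size alone. HOXC8, a gene of thoracic identity, had 375 and 163 normalized reads in LF/LCL against 125, 99.5 and 34.3 in SF/SCL. Each group varied widely, with replicate 1 of LF/LCL more than 2 times replicate 2, but the groups did not overlap. The log2 fold change was 1.70 ± 0.64 (limma adjusted p = 0.414, DESeq2 adjusted p = 0.132), and it was 1.10 without LF/LCL replicate 1. HOXC4 had 689.6 and 739 against 550.0, 617 and 493 normalized reads. Its libraries did not overlap, and its log2 fold change was 0.37 ± 0.14 (limma adjusted p = 0.398). HOXC6 had a log2 fold change of 0.93 ± 0.42 (limma adjusted p = 0.472) with libraries that overlapped, and HOXC5 one of 0.03 ± 0.28. Among the libraries the order of HOXC8 from lowest to highest (SF/SCL replicates 3, 2 and 1, then LF/LCL replicates 2 and 1) was that of the smooth muscle marker sum but for SF/SCL replicates 1 and 2, which changed places. The part of muscle in the HOXC8 difference was not tested.

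The HOXA and HOXD clusters gave no gene with an unadjusted p under 0.05. HOXA5, the HOXA gene with the most reads (not scaled for length), had 1187 and 774 normalized reads in LF/LCL against 765, 993 and 982 in SF/SCL. LF/LCL held the highest and the second lowest library, and the log2 fold change was 0.08 ± 0.22 (limma adjusted p = 0.925). HOXA3 was among the steadiest of the factors, with 309.5 ± 44.9 against 319 ± 26.4 normalized reads (log2 fold change -0.05 ± 0.17). HOXA4 (0.02 ± 0.34; -0.02 with DESeq2, edgeR or scaling by library size alone) and HOXA6 (0.22 ± 0.33) had limma adjusted p of 0.991 and 0.846. The groups of HOXA2 and HOXA7 did not overlap, with LF/LCL higher, but neither had an unadjusted p under 0.05. HOXD4 had 318 and 211 normalized reads in LF/LCL against 429, 233 and 442 in SF/SCL. SF/SCL replicate 2 lay among the LF/LCL libraries, and the log2 fold change was -0.45 ± 0.34 (limma adjusted p = 0.672). HOXD3 (-0.54 ± 0.30), HOXD1 (-1.23 ± 0.66) and HOXD9 (0.29 ± 0.49) had limma adjusted p of 0.544, 0.537 and 0.871. Summed over a cluster, HOXB had 3379 and 3437 normalized reads in LF/LCL against 2456, 2774 and 2591 in SF/SCL, and HOXC 1489 and 1150 against 912, 975 and 715. The sums of HOXA and of HOXD overlapped between the groups. HOX genes lie close together, and in the RefSeq gene table, which is of another assembly, HOXA3 spans HOXA4 to HOXA6, HOXB3 spans HOXB4 and HOXB5, and HOXC4 spans HOXC5 and HOXC6. Reads in such overlaps may have been assigned to the neighbour or dropped, and values of these genes are uncertain to that extent.

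MEIS and PBX proteins are the cofactors with which HOX proteins bind DNA, and all 7 of these genes were tested. The MEIS genes, which are close relatives, lay on opposite sides. MEIS1 had 3713 and 3492 normalized reads in LF/LCL against 2793, 2849.9 and 3079 in SF/SCL. Its groups did not overlap, and its log2 fold change was 0.31 ± 0.10 (limma adjusted p = 0.354, DESeq2 adjusted p = 0.165). MEIS2 had 2095 and 1937 normalized reads in LF/LCL against 2547, 3033 and 2976 in SF/SCL. Here every SF/SCL library lay above both LF/LCL libraries, with means of 2852 ± 266 (SD, n = 3) and 2016 ± 112 (SD, n = 2) and a log2 fold change of -0.50 ± 0.12 (limma adjusted p = 0.281, DESeq2 adjusted p = 0.0304). Per value of MEIS1, that of MEIS2 was 0.564 and 0.555 in LF/LCL against 0.912, 1.06 and 0.967 in SF/SCL.

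MEIS3 had the highest positive log2 fold change of the 55 factors, 2.07 ± 0.61 (limma adjusted p = 0.334, DESeq2 adjusted p = 0.0552). Its values were 1268 and 814 normalized reads in LF/LCL against 568, 159 and 155 in SF/SCL. Replicate 1 of SF/SCL lay between the LF/LCL libraries and the other 2 of its group, and without it the log2 fold change was 2.69. LF/LCL replicate 1, which had the highest MEIS3 value, also had the highest smooth muscle marker sum, and SF/SCL replicate 3 had the lowest of both. SF/SCL replicate 1 had more MEIS3 than replicate 2 (568 against 159), while its marker sum was lower (16960 against 22427). The part of muscle in the MEIS3 difference was not tested. PBX3 had 229.9 and 292 normalized reads in LF/LCL against 376, 339 and 430.3 in SF/SCL. Its groups did not overlap, and the log2 fold change was -0.55 ± 0.18 (limma adjusted p = 0.362). PBX2 varied little. It had 1248 ± 129 against 1239 ± 24.5 normalized reads (log2 fold change 0.01 ± 0.11, and -0.03 when scaled by library size alone). Its coefficient of variation over the 5 libraries was 5.40%.

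**Figure D3:**
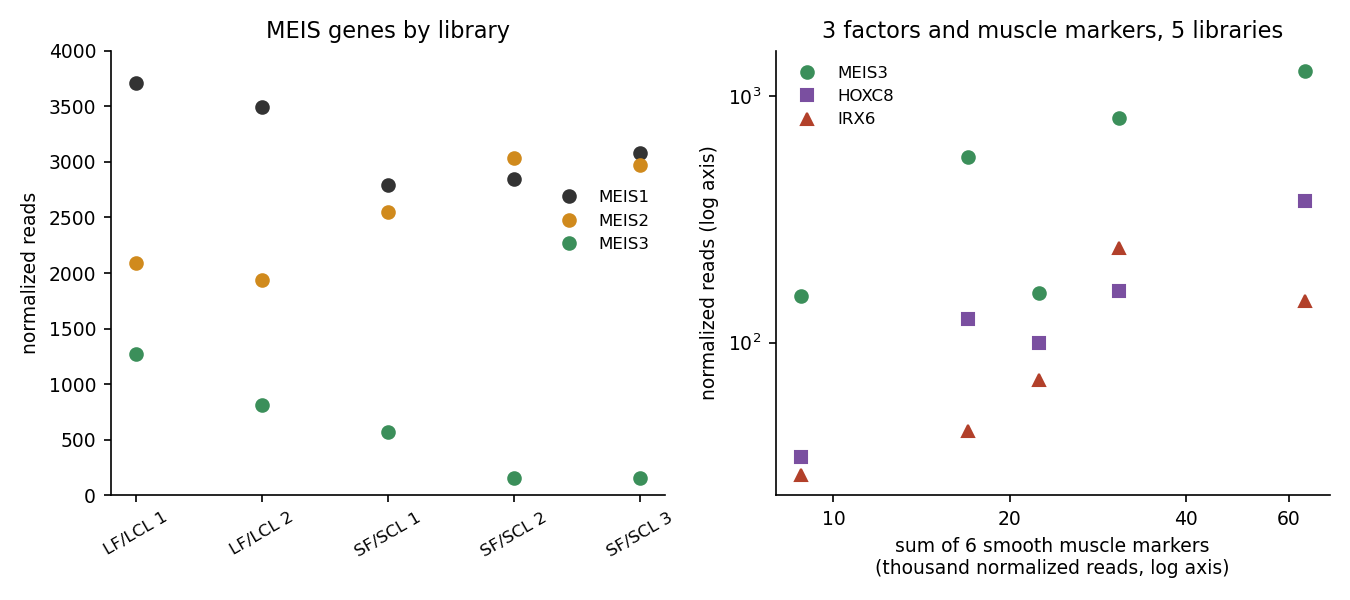
Left, normalized reads of MEIS1, MEIS2 and MEIS3 in each library. MEIS1 and MEIS3 are higher in both LF/LCL libraries and MEIS2 in all 3 SF/SCL libraries. Right, normalized reads of MEIS3, HOXC8 and IRX6 (log axis) against the summed level of 6 smooth muscle markers (log axis) in the 5 libraries. MEIS3 and HOXC8 are highest in the library with the highest marker sum, LF/LCL replicate 1, and IRX6 is highest in LF/LCL replicate 2.

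Of the 9 PAX genes 3 were tested, PAX2, PAX6 and PAX8. All 3 had an unadjusted limma p under 0.05, against 11.5% of all genes tested, and this share rests on 3 genes only. PAX8, which is needed for the Mullerian duct and marks the secretory cells of the adult oviduct, had 1279 and 1203 normalized reads in LF/LCL against 952, 769 and 716 in SF/SCL. Both LF/LCL libraries were above all of SF/SCL, with a log2 fold change of 0.62 ± 0.15 (limma adjusted p = 0.284, DESeq2 adjusted p = 0.0451). PAX2, its close relative, had 778 and 949.5 against 675, 426 and 439 normalized reads. These groups did not overlap either, and the log2 fold change was 0.78 ± 0.23 (limma adjusted p = 0.332, DESeq2 adjusted p = 0.128). EPCAM and CLDN4 were also higher in both LF/LCL libraries. They come from the list of 7 genes for the secretory epithelium, not all of them particular to secretory cells. By log2 fold change 4 of the 7 were higher in LF/LCL and 3, MUC1, ELF3 and OVGP1, lower. The part of secretory cells in the PAX8 difference was not tested. The value of PAX2 per value of PAX8 overlapped between the groups (0.698 ± 0.128 against 0.625 ± 0.0782).

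PAX6, a factor of the eye, brain and hormone-secreting cells of the gut and pancreas, was near the limit of detection in LF/LCL. It passed the minimum mean of 5 only through SF/SCL, the group where it is high (mean 20.9, against 2.04 in LF/LCL). It had 1 and 3 reads in LF/LCL and 22, 36 and 11 reads in SF/SCL, which are 1.17 and 2.90 against 22.9, 28.0 and 11.8 normalized reads. All 3 SF/SCL libraries were higher. The ratio of the counts relative to depth was 10.2 (SF/SCL over LF/LCL, 95% exact interval from 3.82 to 38.6, for counting error only), and the log2 fold change was -2.83 ± 0.67 (limma adjusted p = 0.282, DESeq2 adjusted p = 0.0626). PAX6 belongs to a gene list picked by the study from the same libraries, so its direction is not independent evidence. Of the hormone-secreting cell markers all 12 were matched but only 4 had a mean over 5. The level summed over the 12 was 182 and 198 normalized reads in LF/LCL against 895, 3327 and 2908 in SF/SCL. GHRL, the gene of ghrelin, alone had 88.0 and 135 against 745, 3240 and 2825. Of the 4 tested markers 2 had a positive and 2 a negative log2 fold change, and only GHRL had an unadjusted limma p under 0.05. SCG3 and PCSK1, below the minimum, were higher in both LF/LCL libraries. NEUROD1 and SST were at 0 reads in every library, and CHGB, INSM1 and ISL1 were below 2 normalized reads. The part of such cells in the PAX6 difference was not tested. The other PAX genes were not tested: PAX1, PAX4 and PAX5 had 0 reads, and PAX3, PAX7 and PAX9 from 2 to 3 reads in all.

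SIX3, a factor of the forebrain and eye, varied more among the SF/SCL libraries than any other factor with an unadjusted p under 0.05. It had 8.21 and 6.78 normalized reads in LF/LCL against 57.2, 13.2 and 209 in SF/SCL. Every SF/SCL library was above LF/LCL, and replicate 3 alone held most of the SF/SCL reads. The ratio of the counts relative to depth was 11.3 (95% exact interval from 6.62 to 21.0, for counting error only). The log2 fold change was -2.72 ± 1.10 (limma adjusted p = 0.430, DESeq2 adjusted p = 0.0274), which moved to -1.76 when SF/SCL replicate 3 was left out and to -3.71 when replicate 2 was. SIX5 had 718 and 579 normalized reads in LF/LCL against 530.2, 628 and 793 in SF/SCL. Its groups overlapped, with a log2 fold change of 0.01 ± 0.20 (-0.03 when scaled by library size alone, and -0.005 with DESeq2).

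IRX6, an Iroquois homeobox gene, had 148 and 242 normalized reads in LF/LCL against 43.7, 70.7 and 29.0 in SF/SCL. Both LF/LCL libraries were at least 2 times the highest SF/SCL library. Its means were 195 ± 66.6 (SD, n = 2) and 47.8 ± 21.2 (SD, n = 3), a 4.08-fold difference, with a log2 fold change of 2.05 ± 0.45 (limma adjusted p = 0.248, DESeq2 adjusted p = 0.00386). It kept an unadjusted p under 0.05 whichever library was left out, with log2 fold changes from 1.70 to 2.41. IRX6 was higher in LF/LCL replicate 2 than in replicate 1, while the smooth muscle marker sum was higher in replicate 1. Within SF/SCL its order from lowest to highest (replicates 3, 1 and 2) was that of the marker sum. The part of muscle in the IRX6 difference was not tested. IRX3 overlapped between the groups (67.5 ± 17.4 against 71.5 ± 24.1 normalized reads; log2 fold change -0.04 ± 0.42), and the other IRX genes stayed below the minimum.

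TBX2, a repressor of the T-box family, had 1127 and 1374 normalized reads in LF/LCL against 975, 863 and 879 in SF/SCL. Its groups did not overlap, and its log2 fold change was 0.46 ± 0.13 (limma adjusted p = 0.314, DESeq2 adjusted p = 0.118). TBX3 is its nearest relative, and its groups overlapped. Its values were 847 and 296 normalized reads in LF/LCL against 394, 559 and 668 in SF/SCL. All 3 SF/SCL libraries lay between the LF/LCL libraries, and the log2 fold change was -0.08 ± 0.47 (0.08 with DESeq2 and with edgeR). TBX21, which is the T-bet factor of T and NK cells, had 19.1 ± 7.83 against 20.7 ± 4.58 normalized reads (log2 fold change -0.15 ± 0.49, limma adjusted p = 0.940). The markers of T and NK cells were on the other side, with 4 of 8 higher in LF/LCL at an unadjusted p under 0.05 and sums of 1077 and 1153 normalized reads against 585 to 699 in SF/SCL. TBX6 and TBX19 were the other T-box genes tested, and neither had an unadjusted p under 0.05.

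WT1, a zinc finger factor of the urogenital ridge, was the steadiest of the 55 factors, with a coefficient of variation of 3.77%. It had 6793 and 6820.0 normalized reads in LF/LCL against 7240.4, 6589 and 7104 in SF/SCL. The groups overlapped, and the log2 fold change was -0.03 ± 0.10 (limma adjusted p = 0.929). EMX2, which the Mullerian duct needs, had 2866 and 2789 normalized reads in LF/LCL against 2687, 2810.2 and 3287 in SF/SCL. It overlapped too, with a log2 fold change of -0.05 ± 0.12 and a coefficient of variation of 8.05%. SOX17, an endoderm and epithelial factor, had 2025 ± 361 against 1899.9 ± 198 normalized reads (log2 fold change 0.09 ± 0.15). WT1, EMX2, PBX2, HOXA3 and HOXB4 were among the 6 factors with a coefficient of variation under 10%. At the other end, 10 factors had a highest library over 5 times the lowest, and among them were HOXA9 (41.9 times), SIX3 (30.9) and PAX6 (23.9).

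LHX1, another factor of Mullerian duct growth, had 3 reads in all, each of them in SF/SCL replicate 2, and was not tested. LHX6 was the LIM homeobox gene with the most reads (not scaled for length), at 25.8 and 13.6 normalized reads in LF/LCL against 5.20, 6.22 and 16.1 in SF/SCL. Its groups overlapped, and its log2 fold change was 1.11 ± 0.69 (limma adjusted p = 0.588). MSX1 and MSX2, which act in the mesenchyme under BMP signals, had log2 fold changes of -0.24 ± 0.31 and -0.89 ± 0.42. MSX1 had 63.3 and 68.7 normalized reads in LF/LCL against 61.3, 93.3 and 83.7 in SF/SCL, which overlapped, and MSX2 had 30.5 and 47.4 against 54.1, 103 and 65.5, which did not. DLX3 was on the other side, with 73.5 ± 19.3 against 38.7 ± 11.1 and a log2 fold change of 0.92 ± 0.40 (limma adjusted p = 0.460), also without overlap, while DLX4 had a log2 fold change of 0.07 ± 0.32. PITX1, a factor of hindlimb and pituitary, had 249.8 and 539 normalized reads in LF/LCL against 399, 195 and 337 in SF/SCL. Its LF/LCL libraries lay on both sides of the SF/SCL values of 399 and 337 (log2 fold change 0.30 ± 0.43). Of the 13 NKX genes 4 had 0 reads and 8 stayed below the minimum. NKX6-1 had 15 reads, 12 of them in SF/SCL replicate 2. Neither EN1 nor EN2 passed the minimum.

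**Figure D4:**
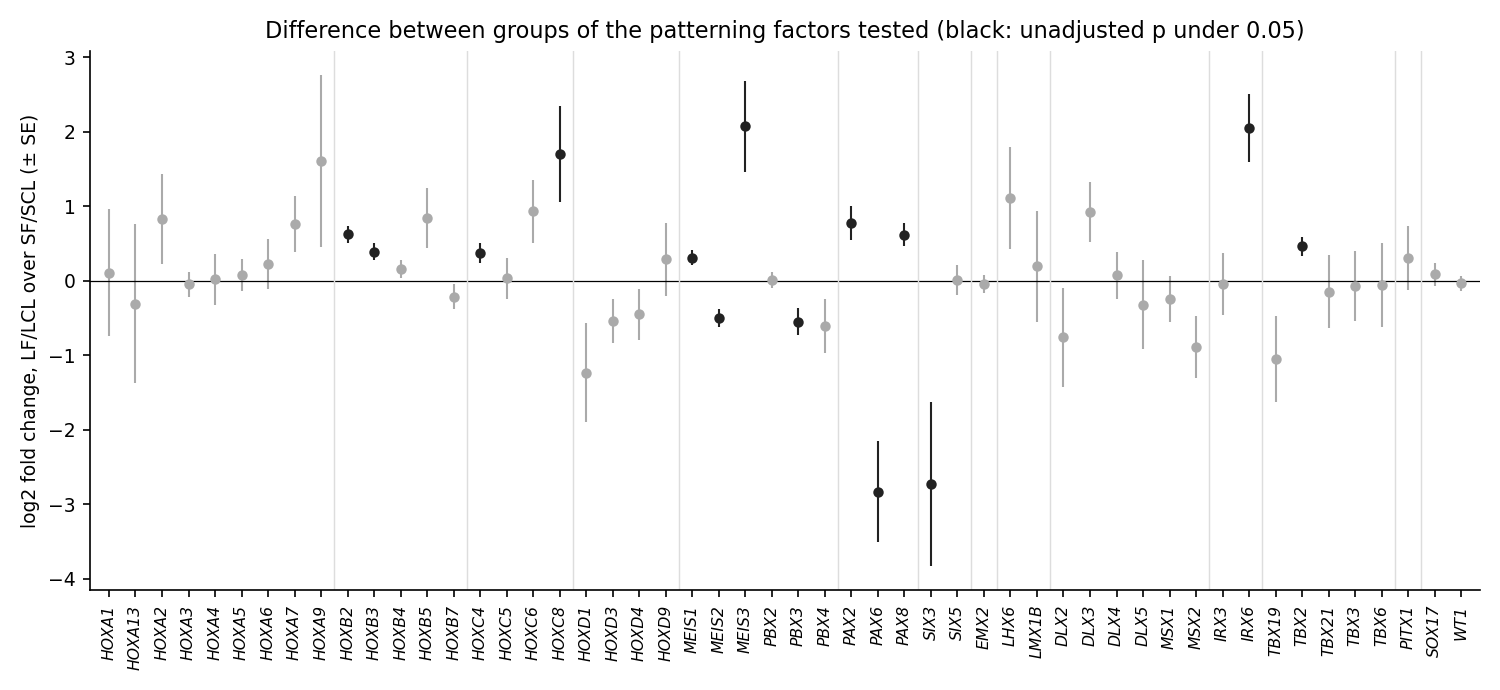
Log2 fold change (LF/LCL over SF/SCL, on log2(normalized reads + 1)) of 52 of the 55 patterning factors tested, with the standard error from limma as bars and family borders as grey lines. Black points are the 14 factors with an unadjusted p under 0.05, and none had an adjusted p under 0.05. MEIS3 (2.07) and IRX6 (2.05) lie highest, PAX6 (-2.83) and SIX3 (-2.72) lowest, and WT1 (-0.03) close to 0.

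Genes that act with these factors were read beside them. From 35 partners in Mullerian duct growth and steroid response that carry other names, 30 were tested, and 5 of them (16.7%) had an unadjusted p under 0.05, against 11.5% of all genes. Higher in LF/LCL were ESR1, the estrogen receptor alpha gene (log2 fold change 0.55 ± 0.16, limma adjusted p = 0.330), WNT5A (0.67 ± 0.21, adjusted p = 0.346) and MECOM (0.26 ± 0.10, adjusted p = 0.422). By quantitative PCR on more cows, the study reported ESR1 transcripts as similar between the groups. GATA6, a zinc finger factor of endoderm and gonad, was among those higher in SF/SCL. It had 163 and 146 normalized reads in LF/LCL against 409, 602 and 616 in SF/SCL. Its groups were far apart, with a log2 fold change of -1.78 ± 0.22 (limma adjusted p = 0.178). The study also chose GATA6 in a list on these libraries, and it is not independent evidence.

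A second list held 114 homeobox and T-box genes with other names, of which 103 were in the table, 44 were tested and 28 had 0 reads in every library. At an unadjusted p under 0.05 there were 6 (13.6%). Among them were HHEX, POU3F2 and ZHX3, higher in LF/LCL, and PROX1 and ZFHX4, higher in SF/SCL. ZFHX4 passed the minimum mean for testing only through SF/SCL, the group where it was high (mean 17.2, against 3.49 in LF/LCL). PROX1, a homeobox factor of lymphatic vessels and liver, had 41.0 and 47.4 normalized reads in LF/LCL against 91.5, 82.4 and 105 in SF/SCL. Its groups did not overlap (log2 fold change -1.05 ± 0.29, limma adjusted p = 0.308). DESeq2 called 0 of this list and 1 of the partners.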

How the data were processed

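RNA from 5 ampulla samples, each from a different cow and labelled LF/LCL (n = 2) or SF/SCL (n = 3), was sequenced by the authors as paired polyA libraries. Reads were cleaned with seqyClean, aligned with TopHat2 2.0.8 and Bowtie2 2.1.0 to the masked Bos taurus UMD assembly and counted per Ensembl gene with HTSeq 0.5.4p2. The cows were Bos indicus, and reads that differ from the Bos taurus sequence may be lost. Whether strand was used in counting is not given in the sources used here. The deposited values are a normalized signal, the read count divided by a DESeq 1.12.1 size factor per library. Dividing each library by its smallest step gave whole reads for 100% of nonzero values (tolerance 0.05 reads). No gene length is in the table, and the order of genes by level per length was not computed.

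Values were tested with limma 3.58.1 (lmFit, eBayes with trend and robust) on log2(value + 1) for the 15815 genes with a mean over 5, two-sided, without covariates, with Benjamini-Hochberg adjustment over all of them. edgeR 4.0.16 and DESeq2 1.42.0 were run on the recovered reads. The limma, edgeR and DESeq2 fits were tested on simulated data. An exact permutation of 2 against 3 libraries cannot go below a two-sided p of 0.2 and was not used for single genes. The members and gene lists were chosen with earlier results of these data known. Factors named with values are those with an unadjusted limma p under 0.05 or called by DESeq2, and up to 4 of each family with the highest mean, and any further gene was named after its values were seen. Lists of stromal, mesothelial, endothelial, B cell, nerve and skeletal muscle markers were also read. Of these, the nerve list had 1 of 6 tested genes at an unadjusted p under 0.05, the endothelial list 1 of 5, the skeletal and cardiac muscle list 2 of 4, and the others 0. The labels give no batch. Some genes that the naming rule selects are not reported here.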

Additional observations from a re-analysis of the deposited data

How the results depend on the processing

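No paired analysis was possible because the groups held different cows. With 2 and 3 cows, a difference of 1 library can decide a call. DESeq2 gave 5 factors with an adjusted p under 0.05 where limma gave 0. When 1 library was left out, the count at an unadjusted p under 0.05 ran from 8 (without LF/LCL replicate 1) to 14 beside 7.8% to 10.5% of all genes, the count of factors whose groups do not overlap from 26 to 37 beside 41.2% to 57.1% of all genes, which fewer libraries raise by construction, the median log2 fold change from -0.12 to 0.22, and the adjusted count stayed at 0. An unadjusted p under 0.05 was lost for MEIS3 without LF/LCL replicate 1, for PAX2 and TBX2 without LF/LCL replicate 2, for HOXB3 without LF/LCL replicate 1 or SF/SCL replicate 1, for HOXC8, MEIS1 and PBX3 without LF/LCL replicate 1 or either of 2 SF/SCL libraries (replicates 2 and 3, 1 and 2, and 1 and 3 in that order), and for HOXC4 and SIX3 whichever library except SF/SCL replicate 2 was left out. The DESeq2 calls were not refitted in this way. A lone LF/LCL library was then assumed to vary like the others. Plain eBayes gave 12 factors (8 higher in LF/LCL) and lost HOXC4, HOXC8, MEIS1 and SIX3. Scaling by library size alone lost HOXC4, and SIX3 was lost with a pseudocount of 5 or a mean over 20. The alternatives run were 15 for most factors and 14 for the 6 that 1 of the filters removes. Under them 25 of the 42 named factors kept their direction and 17 did not. For a factor whose groups do not overlap, leaving out 1 library could not turn the direction.

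Log2 fold changes that turned with the tool or scaling were those of HOXA4 (-0.021 with DESeq2, -0.019 with edgeR and -0.018 by library size alone), SIX5 (-0.0051 with DESeq2, -0.0031 with edgeR and -0.029 by library size), TBX3 (0.080 with DESeq2 and with edgeR), and by library size alone HOXC5 (-0.0042) and PBX2 (-0.029). With 1 library left out, the log2 fold change crossed 0 for HOXA3 (-0.20 to 0.10), HOXA4 (-0.24 to 0.29), HOXA5 (-0.23 to 0.39), HOXA6 (-0.28 to 0.72), HOXC5 (-0.12 to 0.19), HOXD9 (-0.38 to 0.96), PBX2 (-0.10 to 0.11), SIX5 (-0.15 to 0.16), EMX2 (-0.10 to 0.041), LMX1B (-0.18 to 0.63), DLX4 (-0.14 to 0.29), IRX3 (-0.36 to 0.22), TBX21 (-0.56 to 0.26), TBX3 (-0.83 to 0.68), TBX6 (-0.58 to 0.47), PITX1 (-0.25 to 0.86) and SOX17 (-0.10 to 0.27). With all 5 libraries none of these had an unadjusted p under 0.05, but HOXA6 did without LF/LCL replicate 2 and TBX3 without LF/LCL replicate 1.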
